A study of Homo sapiens with 10 samples.

Results

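The miR-532, miR-500, miR-502 and miR-660 cluster is a group of miRNA hairpins inside CLCN5, the gene of the chloride/proton exchanger ClC-5. Its members here were 7 mature miRNAs listed by name, with earlier results of these data known. The deposited table held 2576 mature miRNAs, of which 1196 had a read. The 7 members are hsa-miR-532-5p, hsa-miR-532-3p, hsa-miR-500a-3p, hsa-miR-362-5p, hsa-miR-501-3p, hsa-miR-660-5p and hsa-miR-502-3p, written without the prefix from here on. Each had 1 row in the table.

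The small RNA of ES-2, a cell line established from a human ovarian cancer, had been sequenced after transfection of the cells with siRNA. The siIGF2BP1 group (2 libraries) received a pool of siRNAs against IGF2BP1, the siIGF2BP2 group (3 libraries) a pool against IGF2BP2 and the siIGF2BP3 group (3 libraries) a pool against IGF2BP3. The siC group (2 libraries) received control siRNAs. All 4 groups were the same cell line in the same medium, and the labels describe the cells as parental. The IGF2BP genes encode paralogous RNA-binding proteins that bind mRNAs. The study, by its title, concerns how IGF2BP1 affects the repression of oncogenic factors by miRNAs, and the comparisons here ask whether the cluster's own miRNAs differed between the groups.

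A miRNA is cut from a hairpin in a longer primary transcript, first by Drosha in the nucleus and then by Dicer in the cytoplasm. Of the 2 arms of the hairpin, named 5p and 3p, usually one is kept by an Argonaute protein and the other is degraded. The kept strand finds target mRNAs mainly through its seed, bases 2 to 8 from the 5′ end. Hairpins that lie close together on one strand can come from a single primary transcript, and their mature levels still differ with the processing and decay of each one.

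The 8 hairpins of the locus lie on the plus strand of chromosome X at chrX:50003148-50014683 (GRCh38.p14, a span of 11536 bases), in the order mir-532, mir-188, mir-500a, mir-362, mir-501, mir-500b, mir-660, mir-502. Of 9 CLCN5 transcripts in the GENCODE annotation of GRCh38, 3 span all 8 hairpins on the same strand, and 0 of the 3 have an exon that overlaps a hairpin, so the hairpins are intronic. The authors aligned to hg19, but their table holds no coordinates.

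The mature sequences of 6 of the 7 members are shown because several members are nearly the same molecule, which bears on how far their counts can be told apart. They are RefSeq entries on GRCh38.p14, written 5′ to 3′, and capitals mark the seed; miR-660-5p is named only.
miR-532-5p: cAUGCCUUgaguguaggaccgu
miR-532-3p: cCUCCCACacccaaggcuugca
miR-500a-3p: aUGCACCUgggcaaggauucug
miR-362-5p: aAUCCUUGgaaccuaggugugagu
miR-501-3p: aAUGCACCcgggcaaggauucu
miR-502-3p: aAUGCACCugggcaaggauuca

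miR-501-3p and miR-502-3p share the seed AUGCACC and differ by C9U and U22A, with the base of miR-501-3p first and positions counted from 1 at the 5′ end. miR-500a-3p starts 1 base later in the same motif, so its seed is UGCACCU. It shares a run of 20 bases with miR-502-3p and of 13 bases with miR-501-3p. How the authors counted reads that match more than 1 of these 3 is not given in the sources used here, so the split of reads among miR-500a-3p, miR-501-3p and miR-502-3p is uncertain. The other 3 printed members, miR-532-5p, miR-532-3p and miR-362-5p, each have a seed that no other printed member has.

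The libraries differed in depth, and in features that follow the blocks in which they were deposited. Recovered totals were 1269743 and 1096008 reads in siIGF2BP1, 495530 to 697080 in siIGF2BP2, 462724 to 815312 in siIGF2BP3, and 553288 and 733608 in siC. The labels give siIGF2BP2 and siIGF2BP3 another source name than siIGF2BP1 and siC. The 20 listed miRNAs of the imprinted 14q32 cluster took 0.153% and 0.238% of reads in siIGF2BP1, at most 0.00182% in each siIGF2BP2 or siIGF2BP3 library, and 0.182% and 0.410% in siC. In siIGF2BP2 and siIGF2BP3, 15 to 17 of the 20 had 0 reads. Block and group therefore cannot be told apart where siIGF2BP2 or siIGF2BP3 is set against siC or siIGF2BP1. The comparisons of siIGF2BP1 with siC and of siIGF2BP2 with siIGF2BP3 lie within a block. The 7 listed epithelial miRNAs, including the miR-200 family, took at most 0.00121% of reads in any library. Listed blood cell miRNAs took 0.0439% to 0.163% and listed muscle, liver and neural miRNAs 0.0105% to 0.0450%. Levels are the authors' normalised read counts, in which 1 read is worth 0.803 to 1.996, and whole reads could be recovered from them.

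The 7 members together took 0.0254% to 0.0493% of the miRNA reads of a library, and 3 members made up most of this. miR-500a-3p had the highest level, a mean of 145 over the 10 libraries (1092 reads), rank 125 among the 1196 detected miRNAs. miR-532-5p followed at 93.8 (703 reads, rank 151) and miR-660-5p at 66.1 (506 reads, rank 174). miR-501-3p averaged 36.2 (279 reads), miR-362-5p 14.2 (106 reads), miR-502-3p 9.90 (73 reads) and miR-532-3p 2.55 (18 reads, with reads in 9 of 10 libraries). The printed members are 22 to 24 bases long, so levels were compared without a correction for length. The members' levels thus spanned a wide range although the hairpins lie on 1 strand within 1 host gene.

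Nearly all reads of each member hairpin came from 1 arm. The 5p arm gave 97.5% of 721 mir-532 reads, 99.6% of 508 mir-660 reads and 100% of 106 mir-362 reads. The 3p arm gave 98.9% of 1104 mir-500a reads, 94.3% of 296 mir-501 reads and 93.6% of 78 mir-502 reads. Among the member hairpins, the more abundant arm is thus 3p in mir-500a, mir-501 and mir-502, and 5p in mir-532, mir-660 and mir-362. mir-188 and mir-500b, the hairpins with no member, had 7 and 20 reads in all. miR-532-3p is the only member that is the minor arm of its hairpin.

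**Figure D1:**
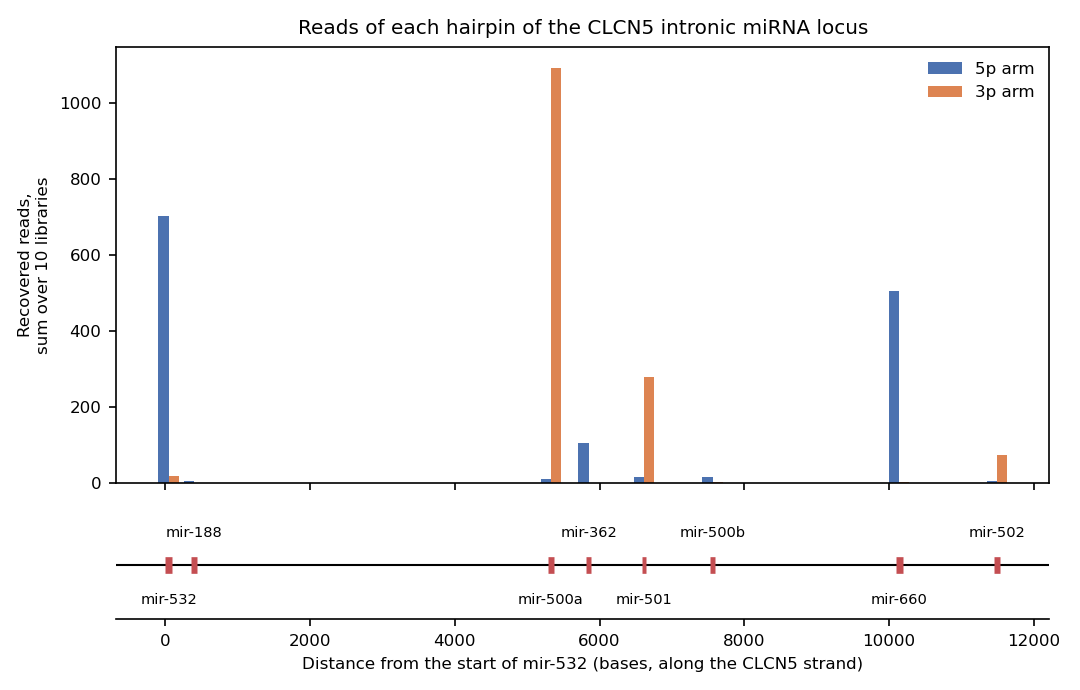
Recovered reads of the 5p and 3p arm of each hairpin, summed over the 10 libraries (upper panel, bars side by side at the hairpin's position), above a map of the 8 hairpins by distance in bases from the start of mir-532 (lower panel). Reads concentrate in the 5p arms of mir-532 (703) and mir-660 (506) and the 3p arms of mir-500a (1092) and mir-501 (279), while mir-188 and mir-500b have 7 and 20 reads.

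The 7 members together took the smallest share of miRNA reads in siIGF2BP1. They held 0.0296% and 0.0254% of reads in siIGF2BP1, 0.0376%, 0.0385% and 0.0387% in siIGF2BP2, 0.0365%, 0.0405% and 0.0493% in siIGF2BP3, and 0.0439% and 0.0459% in siC. Both siIGF2BP1 libraries lay below each of the other 8, and the siIGF2BP3 values spanned those of siC. The share of all miRNAs with both siIGF2BP1 libraries lowest was not counted, so this order cannot be called particular to the cluster. The siIGF2BP1 libraries are also the deepest, and those of siIGF2BP2 and siIGF2BP3 lie in the other block. The parts of depth and block were not tested. Group means with their SD over libraries were 0.0275% ± 0.00300 in siIGF2BP1, 0.0383% ± 0.000596 in siIGF2BP2, 0.0421% ± 0.00653 in siIGF2BP3 and 0.0449% ± 0.00143 in siC (n = 2, 3, 3 and 2). No test was made on the sum, because the members were listed with earlier results known. In bulk libraries, fewer cells making a miRNA and less of it per cell cannot be told apart.

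**Figure D2:**
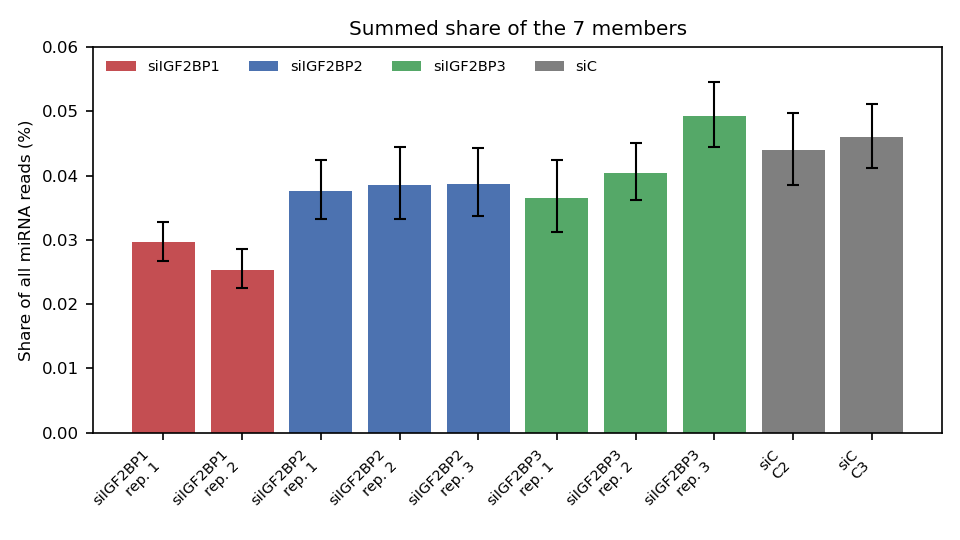
Share of all miRNA reads taken by the 7 members in each library (y axis, percent), coloured by group, with exact Clopper-Pearson 95% intervals that cover counting error only. Both siIGF2BP1 libraries (0.0296% and 0.0254%) sit below all others, which range from 0.0365% to 0.0493%. How many other miRNAs show this order was not counted.

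After IGF2BP1 knockdown, all 7 members lay below siC, and none passed the threshold of the main test. The test was limma on log2(value + 1), fitted to 889 miRNAs with all 4 groups and adjusted by Benjamini-Hochberg at 0.05. It called 0 of 7 members, against 2.47% of the 889 in either direction. At an unadjusted p under 0.05 it had 1 of 7 members, against 13.7% of all. The members' median log2 fold change was -0.67, where the median over the 889 was 0.10, and over the 313 miRNAs with a mean value of at least 10 it was 0.16. In that last set 36.7% lay below 0. Both siIGF2BP1 libraries lay under both siC libraries for 5 of 7 members, a pattern that 11.9% of all tested miRNAs showed.

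miR-500a-3p had the smallest p of the members in this comparison. The miR-500 hairpin has been reported in gastric cancer to act on CYLD, a brake on NF-kB signalling. The values of miR-500a-3p were 108.5 and 91.7 in siIGF2BP1, against 160.0 and 158.4 in siC. The groups did not overlap, and the siC pair was tight. Means were 100 ± 11.9 and 159 ± 1.15 (SD, n = 2 each). The log2 fold change was -0.67 (SE 0.22, limma adjusted p = 0.148). The count tests on recovered reads called it lower, with -0.92 in edgeR's quasi-likelihood test (adjusted p = 0.0189) and -0.90 in DESeq2 (adjusted p = 0.0140). It was the only member either tool called, against 7.46% of 335 miRNAs called lower by edgeR and 2.01% of 1196 by DESeq2. In edgeR with TMM scaling the 6 members tested had a median of -0.93, and the miRNAs with a mean value of at least 10 had a median of -0.12.

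miR-532-5p, the most abundant 5p member and a reported regulator of the tumour suppressor RUNX3, had values of 77.9 and 57.3 in siIGF2BP1, against 87.4 and 99.8 in siC. The groups did not overlap, yet the gap between them was smaller than the gap within siIGF2BP1. Its log2 fold change was -0.48 (SE 0.22, limma adjusted p = 0.364). miR-660-5p, which has been reported to target MDM2, had 57.0 and 55.5 in siIGF2BP1, against 69.3 and 81.2 in siC. Here both siIGF2BP1 values lay under siC, with a log2 fold change of -0.41 (SE 0.32, limma adjusted p = 0.704). The siIGF2BP1 pair, from 71 and 63 reads, was closer than counting error.

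Among the 5 members whose groups did not overlap, the seed-sharing pair had the largest differences and the largest standard errors. miR-501-3p had 33.7 and 26.4 in siIGF2BP1, against 51.1 and 70.5 in siC, a log2 fold change of -0.98 (SE 0.48, limma adjusted p = 0.388). miR-502-3p had 8.84 and 4.41 in siIGF2BP1, against 13.2 and 13.3 in siC, a log2 fold change of -0.97 (SE 0.48, limma adjusted p = 0.401). In both the groups stood apart, but the siIGF2BP1 values of miR-502-3p rest on 11 and 5 reads. Without siIGF2BP1 replicate 2 the log2 fold change of miR-502-3p was -0.53, and that of miR-532-5p was -0.26. Summed over miR-500a-3p, miR-501-3p and miR-502-3p, which does not depend on how reads were divided among the 3 as long as each read was counted 1 time, the level was 137 ± 20.2 in siIGF2BP1 and 233 ± 12.6 in siC (SD, n = 2 each).

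For the 2 remaining members the groups overlapped. miR-362-5p, which has also been reported to target CYLD, had 13.7 and 9.70 in siIGF2BP1, against 13.2 and 24.0 in siC. miR-532-3p, the minor arm, had 2.41 and 0 in siIGF2BP1, against 6.60 and 1.33 in siC. The log2 fold changes were -0.59 (SE 0.53) for miR-362-5p and -1.19 (SE 0.78) for miR-532-3p. The values of miR-532-3p are 3, 0, 4 and 1 reads, and 0 reads in the second siIGF2BP1 library allow a value of up to 2.64. At this depth a difference in miR-532-3p was not detectable. The siIGF2BP1 libraries are also the deepest of the 10, and the part of depth in these differences was not tested.

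**Figure D3:**
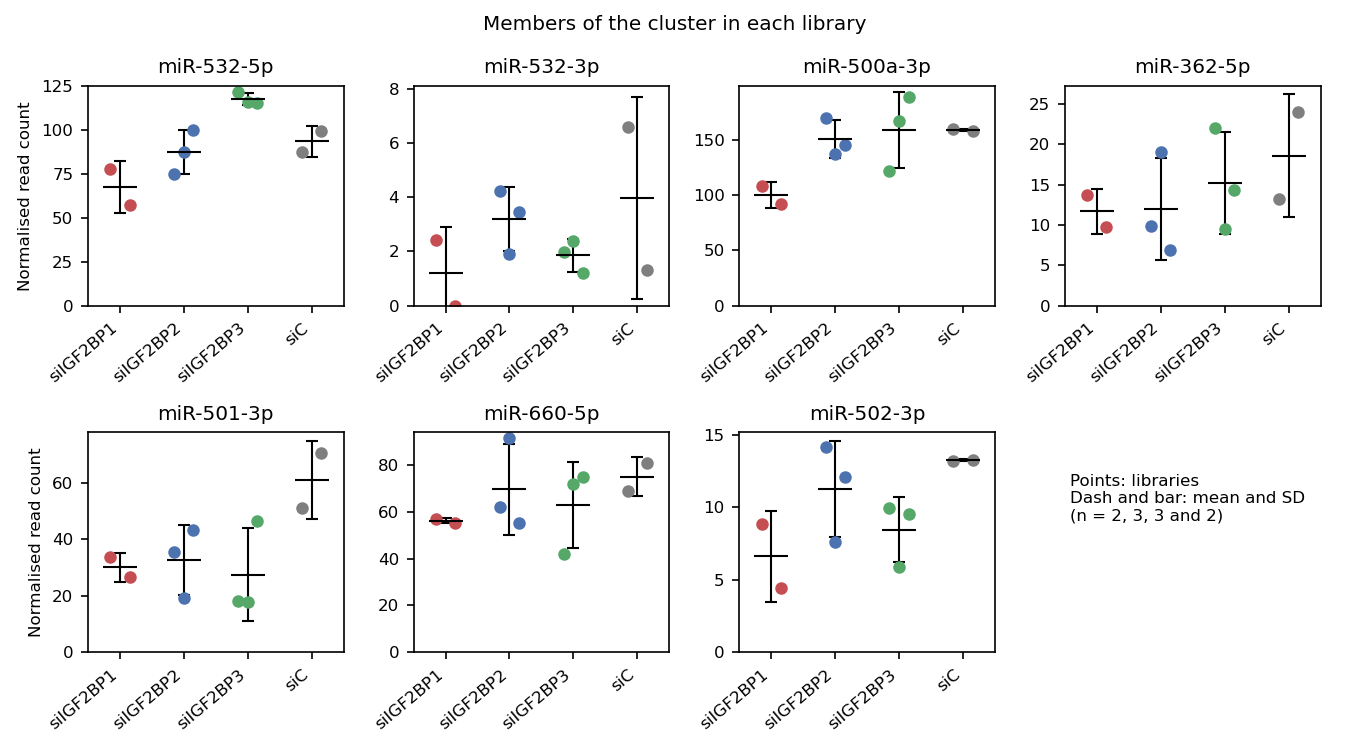
Normalised read count of each member (y axis from 0, its own scale per panel) in siIGF2BP1, siIGF2BP2, siIGF2BP3 and siC, with points for libraries and dash and bar for mean and SD. miR-500a-3p is lowest in the 2 siIGF2BP1 libraries, miR-532-5p is highest in the 3 siIGF2BP3 libraries, and miR-501-3p is highest in the 2 siC libraries.

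After IGF2BP2 knockdown, the 3 most abundant members lay close to siC, while miR-501-3p and miR-362-5p had lower means. limma called 0 of 7, against 9.0% of all tested miRNAs, and 0 had an unadjusted p under 0.05 (17.9% of all). edgeR and DESeq2 also called 0, against 15.5% and 5.02% of the miRNAs they tested. All 7 log2 fold changes were below 0 on the deposited scale, with a median of -0.14 beside -0.03 over the 889. Below 0 lay 51.7% of the 889, and 45.4% of those with a mean value of at least 10. Upper-quartile scaling, which moves the whole distribution upwards, turned 5 of the 7 above 0, and leaving out single libraries turned miR-532-5p, miR-532-3p and miR-660-5p. miR-501-3p, whose control of a glutamate receptor subunit is known from rat neurons, had 35.4, 19.1 and 43.2 in siIGF2BP2, against 51.1 and 70.5 in siC. It was the only one of the 7 whose siIGF2BP2 libraries all lay under siC, a pattern shown by 16.1% of all tested miRNAs, and its log2 fold change was -0.94 (SE 0.43, limma adjusted p = 0.280). miR-362-5p had 9.90, 19.1 and 6.91 in siIGF2BP2, against 13.2 and 24.0 in siC. These groups overlapped, and the log2 fold change of -0.65 had a 95% interval of -1.69 to 0.39.

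The 3 most abundant members had log2 fold changes between -0.14 and -0.08 in this comparison. miR-500a-3p had 169.8, 137.5 and 145.0 in siIGF2BP2 (siC 160.0 and 158.4), with a log2 fold change of -0.08 and a 95% interval of -0.53 to 0.36. miR-532-5p had 75.0, 87.8 and 100.1 (siC 87.4 and 99.8), with an interval of -0.54 to 0.34. miR-660-5p had 62.3, 91.6 and 55.3 (siC 69.3 and 81.2), with an interval of -0.76 to 0.49. In each of the 3 the siC libraries fell inside the range of siIGF2BP2, and the intervals include differences of the size seen after IGF2BP1 knockdown for miR-532-5p and miR-660-5p.

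After IGF2BP3 knockdown, 6 of 7 members had log2 fold changes below 0, with a median of -0.29 beside 0.00 over the 889, and miR-532-5p lay above siC. Of the 889, 49.3% lay below 0, and 41.5% of those with a mean value of at least 10. miR-501-3p had its lowest mean of the 4 groups here, and miR-532-5p its highest. limma called 0 of 7, against 10.6% of all tested miRNAs, with 1 of 7 at an unadjusted p under 0.05 (20.8% of all). edgeR and DESeq2 called 0, against 19.1% and 5.77% of the miRNAs they tested. miR-501-3p had 18.0, 17.7 and 46.4 in siIGF2BP3, against 51.1 and 70.5 in siC, a log2 fold change of -1.25 (SE 0.43, limma adjusted p = 0.101). The third siIGF2BP3 library stood near siC and the other 2 far below, and without that library the log2 fold change was -1.70 and limma called it (adjusted p = 0.0111). miR-532-5p had 121.7, 115.9 and 115.4 in siIGF2BP3, against 87.4 and 99.8 in siC. All 3 siIGF2BP3 values were above siC, with a log2 fold change of 0.33 (SE 0.20, limma adjusted p = 0.424).

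Groups that did not overlap numbered 2 of 7 members on the lower side, miR-501-3p and miR-502-3p (18.1% of all tested miRNAs), and 1 on the higher side, miR-532-5p (11.2%). miR-502-3p had 9.98, 5.92 and 9.51 in siIGF2BP3, from 5 to 8 reads a library, against 13.2 and 13.3 in siC, from 8 and 10 reads. Its log2 fold change of -0.62 had a 95% interval of -1.56 to 0.33. miR-500a-3p had 121.7, 166.8 and 189.1 in siIGF2BP3, a mean of 159 ± 34.3 (SD, n = 3) beside 159 ± 1.15 (SD, n = 2) in siC. The log2 fold changes of miR-660-5p, miR-362-5p and miR-532-3p were -0.29 (95% interval -0.92 to 0.33), -0.29 (-1.33 to 0.75) and -0.59 (-2.13 to 0.96), and their groups overlapped. Upper-quartile scaling turned miR-500a-3p, miR-660-5p and miR-362-5p above 0.

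miR-501-3p thus lay below siC after each of the 3 knockdowns, by -0.98, -0.94 and -1.25 on the log2 scale. These 3 comparisons share the same 2 siC libraries, so they are not separate observations of a difference. The highest knockdown library, at 46.4, was under the lower siC library, at 51.1. These values rest on 39 and 31 reads, with Poisson intervals of 33.0 to 63.4 and 34.7 to 72.6. Each value lies inside the interval of the other, so the gap is within counting error. The share of all tested miRNAs with every knockdown library under both siC libraries was not counted. This order therefore cannot be called particular to miR-501-3p, and the siIGF2BP2 and siIGF2BP3 libraries lie in another block than siC. The libraries with the most miR-501-3p in siIGF2BP3 and in siC, siIGF2BP3 replicate 3 and siC C3, were also the ones with the largest share of the 8 listed blood cell miRNAs, 0.163% and 0.122%, beside 0.0439% to 0.0681% in the other 8 libraries. Of the 8 markers 5 and 7 had a read there, with most of the reads from miR-142-5p in siIGF2BP3 replicate 3 (1104 of 1254 reads) and miR-451a in siC C3 (496 of 897 reads), and miR-486-5p had 0 in every library. In siIGF2BP1 and siIGF2BP2 the library with the most miR-501-3p was not the one with the most blood cell miRNAs. Their part in the values of miR-501-3p was not tested. Within the cluster, miR-501-3p made up 11.0% ± 0.268 of the members' reads in siIGF2BP1, 8.86% ± 3.33 in siIGF2BP2, 6.72% ± 3.116 in siIGF2BP3 and 14.2% ± 2.10 in siC (SD over 2, 3, 3 and 2 libraries). The authors' deposited table gives log2 fold changes of -1.02, -0.89 and -1.12 for it, with false discovery rates of 0.516, 0.664 and 0.121. There, 0 of the 7 members had a false discovery rate under 0.05 in any knockdown, against 0.895%, 2.08% and 2.83% of its 2794 rows for siIGF2BP1, siIGF2BP2 and siIGF2BP3.

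**Figure D4:**
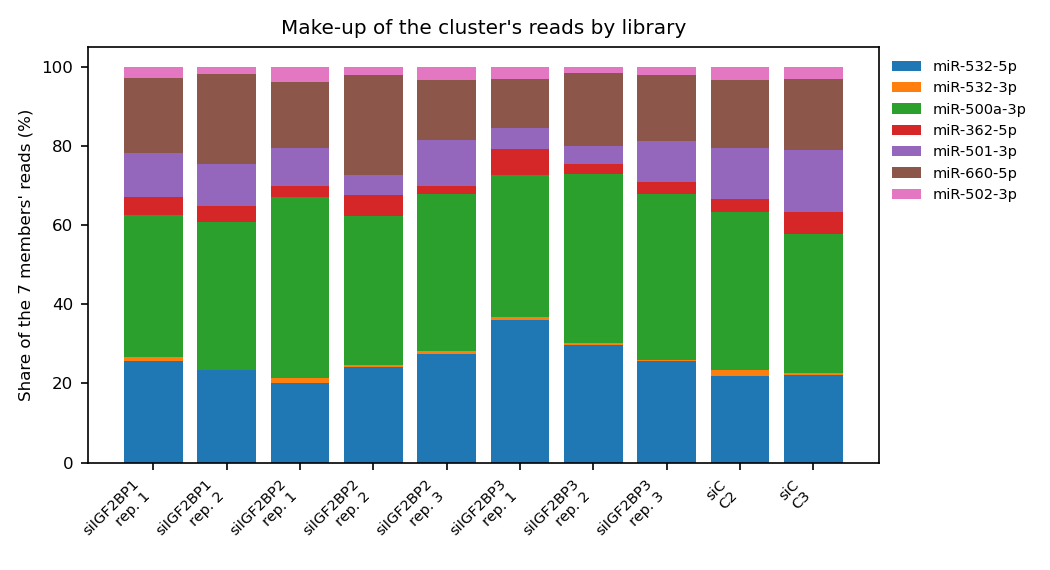
Share of the 7 members' reads taken by each member (y axis, percent of the members' reads) in each library, one stacked bar per library. miR-501-3p takes 4.55% to 11.8% in the 8 knockdown libraries and 12.8% and 15.7% in the 2 siC libraries, and miR-532-5p reaches 36.1% in siIGF2BP3 replicate 1.

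Between knockdowns, the members with the smallest adjusted p were the 2 most abundant, miR-532-5p and miR-500a-3p. Between siIGF2BP1 and siIGF2BP3, miR-532-5p was lower in siIGF2BP1, the single call among the 42 limma tests of members. In this comparison limma called 1 of 7 members, against 132 of the 889 miRNAs in either direction and 2.59% called lower. At an unadjusted p under 0.05 it had 2 of 7 members, against 26.2% of all. The values of miR-532-5p, 77.9 and 57.3 in siIGF2BP1, lay well under 121.7, 115.9 and 115.4 in siIGF2BP3. Means were 67.6 ± 14.6 (SD, n = 2) and 118 ± 3.52 (SD, n = 3). The log2 fold change was -0.81 (SE 0.20, limma adjusted p = 0.0166). edgeR and DESeq2 called it too, at -0.94 (adjusted p = 0.00456) and -0.92 (adjusted p = 0.00478). Without siIGF2BP1 replicate 2 it was -0.59 and limma no longer called it (adjusted p = 0.165).

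miR-500a-3p showed the same order of these groups but missed the limma threshold, with a log2 fold change of -0.65 (SE 0.20, adjusted p = 0.0520). Its 108.5 and 91.7 in siIGF2BP1 lay under the lowest siIGF2BP3 library, at 121.7. edgeR gave -0.82 (adjusted p = 0.00834) and DESeq2 -0.81 (adjusted p = 0.00753), and without siIGF2BP3 replicate 1 limma called it at -0.83 (adjusted p = 0.0119). Of the 7 members, these 2 were the ones whose groups did not overlap, both lower in siIGF2BP1, beside 9.45% of all tested miRNAs. edgeR called 14.9% of its 335 miRNAs lower and DESeq2 3.68% of its 1196.

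Between siIGF2BP1 and siIGF2BP2, limma called 0 of 7 members, against 13.5% of all tested miRNAs, with 1 of 7 at an unadjusted p under 0.05 (22.7% of all). miR-500a-3p came nearest, with 108.5 and 91.7 in siIGF2BP1 under 169.8, 137.5 and 145.0 in siIGF2BP2. Its log2 fold change was -0.59 (SE 0.20, limma adjusted p = 0.0838). It was the only member whose groups did not overlap (7.99% of all tested miRNAs on that side). edgeR called it at -0.79 (adjusted p = 0.0141; 8.06% of its 335 miRNAs were called lower) and DESeq2 at -0.76 (adjusted p = 0.0174; 2.01% of its 1196). The comparisons of siIGF2BP1 with siIGF2BP2 and with siIGF2BP3 both cross the blocks and share the siIGF2BP1 libraries.

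Between siIGF2BP2 and siIGF2BP3, which lie within a block, limma called 0 of 7 members, against 3.15% of all tested miRNAs, and edgeR and DESeq2 called 0 (11.9% and 3.51% of the miRNAs they tested). At an unadjusted p under 0.05 limma had 1 of 7 (13.8% of all). This was miR-532-5p, with 75.0, 87.8 and 100.1 in siIGF2BP2 under 121.7, 115.9 and 115.4 in siIGF2BP3. It alone of the 7 did not overlap between these groups (7.99% of all tested miRNAs were lower in this way). The means were 87.7 ± 12.6 and 118 ± 3.52 (SD, n = 3 each), with a log2 fold change of -0.43 (SE 0.18, limma adjusted p = 0.288). miR-500a-3p differed by -0.06, with a 95% interval of -0.46 to 0.34, and the other 5 members had intervals that included 0.

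Ordered by mean level, miR-532-5p thus ran siIGF2BP1 (67.6), siIGF2BP2 (87.7), siC (93.6) and siIGF2BP3 (118), where siIGF2BP2 and siC overlapped and the other neighbours did so only between siIGF2BP1 and siIGF2BP2. miR-500a-3p ran siIGF2BP1 (100), siIGF2BP2 (151), siC (159) and siIGF2BP3 (159), and above siIGF2BP1 all groups overlapped. miR-660-5p ran siIGF2BP1 (56.3), siIGF2BP3 (63.0), siIGF2BP2 (69.7) and siC (75.2), with every pair of neighbours overlapping. siIGF2BP1 had the lowest mean for every member except miR-501-3p, whose lowest mean was in siIGF2BP3 (27.4), and the order of the other groups differed between members.

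**Figure D5:**
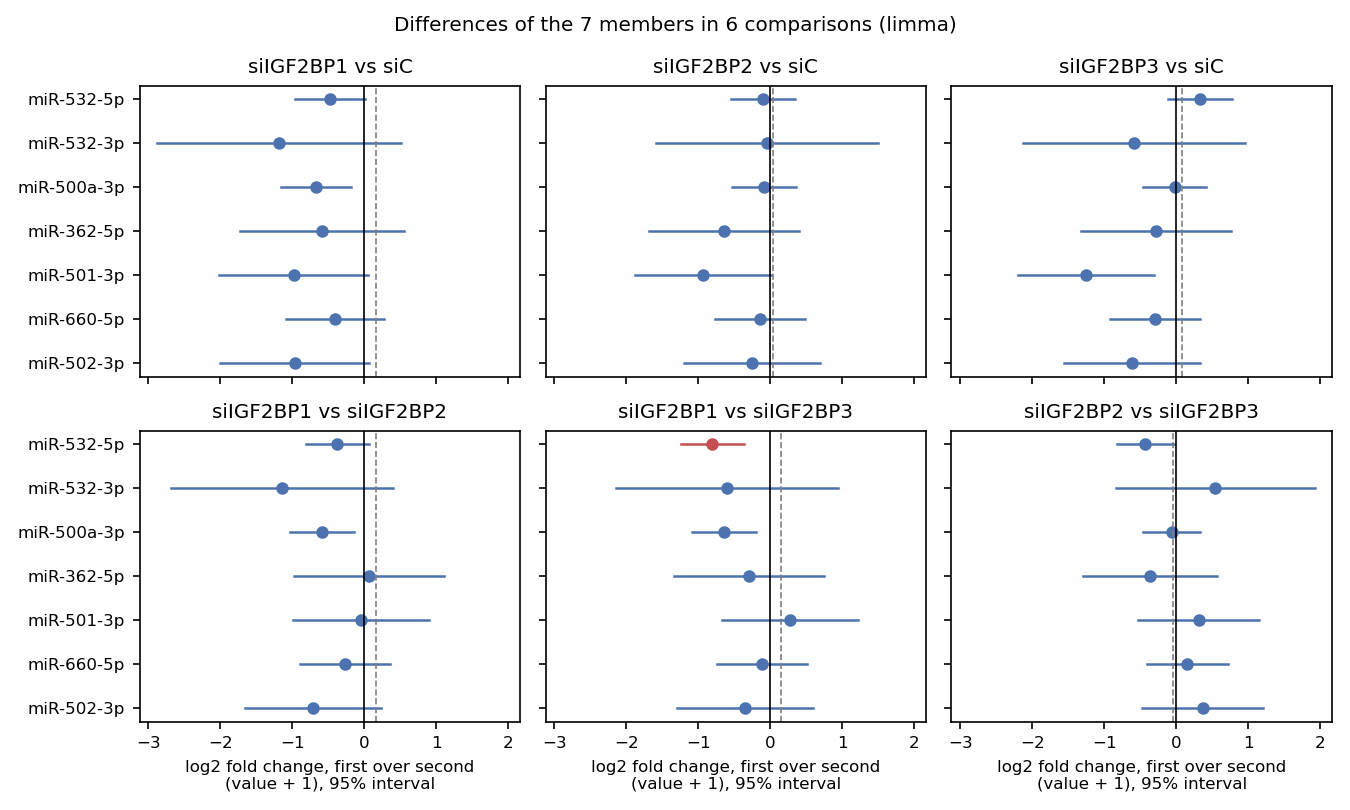
log2 fold change of each member, first-named over second-named group, on the log2(value + 1) scale with 95% intervals from limma, in 6 comparisons; red marks the single call and the dashed line the median of the 313 miRNAs with a mean value of at least 10. All 7 points lie below 0 for siIGF2BP1 vs siC, and the called point is miR-532-5p in siIGF2BP1 vs siIGF2BP3 at -0.81.

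The minor arms and the hairpins with no member gave too few reads for a comparison of levels. The 9 other mature miRNAs of the locus had 63 reads in all 10 libraries, and 1 of them, miR-362-3p, had 0. In each comparison 6 of the 9 passed the filter, 0 were called by limma, and at most 1 had an unadjusted p under 0.05. Their lowest adjusted p was 0.122, for miR-188-5p between siIGF2BP2 and siIGF2BP3.

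The share of the 5p arm was compared for the 2 hairpins with at least 30 reads in every library, since a ratio within a library does not depend on scaling. For mir-532 it averaged 98.5% ± 2.12 in siIGF2BP1, 96.4% ± 1.63 in siIGF2BP2, 98.5% ± 0.493 in siIGF2BP3 and 95.8% ± 4.03 in siC (SD over 2, 3, 3 and 2 libraries). The lowest library was siC C2 at 93.0%, from 57 reads, and the highest siIGF2BP1 replicate 2 at 100%, from 65 reads. For mir-500a the 5p arm took 0.476% ± 0.673 in siIGF2BP1, 0.392% ± 0.679 in siIGF2BP2, 1.08% ± 0.965 in siIGF2BP3 and 2.24% ± 0.310 in siC, from 12 reads of that arm in all. All 18 bases of miR-500b-5p, which had 16 reads, also lie within miR-500a-5p. The split of reads between these 5p arms, and so the mir-500a share, is uncertain. Over 12 two-sided exact permutation tests (2 hairpins in 6 comparisons) the smallest p was 0.1, for mir-532 between siIGF2BP2 and siIGF2BP3, and the smallest adjusted p was 0.8. The smallest p that the design allows is 0.1 with 3 against 3 libraries, 0.2 with 3 against 2 and 0.333 with 2 against 2, so a p under 0.05 could not be reached.

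Across the 10 libraries, the 5 miRNAs outside the locus whose profile lay nearest to that of the summed members were miR-125b-5p, miR-29a-3p, miR-183-5p, miR-30c-2-3p and miR-130b-3p. Nearness was the root mean square difference of the centred log2(value + 1) profiles among 148 miRNAs with a mean value of at least 100. It was 0.0999 for miR-125b-5p and 0.151 for miR-29a-3p, against a median of 0.376 over the 148. miR-125b-5p averaged 2850 in siIGF2BP1, 3907 in siIGF2BP2, 3752 in siIGF2BP3 and 4279 in siC. It was picked for its nearness to the summed members, so its lowest mean in siIGF2BP1 is not a separate observation. By the same measure the members themselves lay at 0.116 (miR-500a-3p), 0.228 (miR-532-5p), 0.266 (miR-660-5p), 0.366 (miR-502-3p), 0.502 (miR-362-5p), 0.565 (miR-501-3p) and 0.678 (miR-532-3p). miR-500a-3p is the largest term of the sum, and the low members also carry the largest counting error.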

How the data were processed

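Small RNA reads of 10 libraries had been trimmed, aligned and counted with cutadapt 1.6, Bowtie2 2.2.4, featureCounts 1.4.6 and edgeR 3.12 on hg19, per the submitters' processing notes; the sources used here state neither their settings nor the miRNA annotation. The authors' library columns hold a normalised signal per mature miRNA (2794 rows, 2576 names after rows of 1 name were summed). In all of them 100% of values were whole multiples of 1 read within 0.01 reads, so whole reads were recovered. The authors' deposited table also gives a log2 fold change, a p-value and a false discovery rate for each knockdown against siC. The table held 0 columns of other samples.

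Neither control column names its sample, so the pair is called siC C2 and siC C3. The labels do not say whether libraries were made from separate cultures. All p-values therefore measure only the spread among the libraries, and that spread may be technical. Within every group the libraries differed beyond sampling noise, with a chi-square of 6.80 to 38.7 per degree of freedom. IGF2BP mRNAs were not measured in these libraries, so depletion of the targets could not be checked here.

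Because the values were normalised and not counts, the main test was limma 3.58.1 in R 4.3.3, on log2(value + 1) with a trend on intensity and 1 fit to all 4 groups. It covered the 889 miRNAs that reached a value of 1 in 2 or more libraries, with p-values adjusted by Benjamini-Hochberg and a threshold of 0.05. This scale understates fold changes of low miRNAs. All 7 members passed this filter. edgeR 4.0.16 (quasi-likelihood, TMM, 335 miRNAs, 6 members, without miR-532-3p) and DESeq2 1.42.0 were run on the recovered reads. Arm shares were compared with exact permutation tests (scipy 1.17.1). Intervals of shares and the floor of 3 reads for a value of 0 cover counting error only. Data for all 10 libraries were simulated over 889 miRNAs, from means and spread over the 4 groups, with changes in every knockdown group. The comparison siIGF2BP1 vs siC was read out for miRNAs with a mean value of 10 to 200. There limma recovered 21.1% of 19 changes of 2-fold and 72.7% of 22 changes of 4-fold, and edgeR 36.8% and 77.3%.

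Named are all 7 members, other arms of the locus if called or at a mean value of at least 10 (none was; those named beside counts of 5 or fewer were chosen after their values were seen), and the 5 miRNAs nearest in profile. The members, the marker lists and these rules were chosen with earlier results of these data known. Alternatives were other pseudocounts (0.1 and 5), filters, scalings and tools, fits of the 2 groups alone, each library left out, and the replicate number as a block between knockdowns; the knockdown fit without that block was added after seeing the data.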

Additional observations from a re-analysis of the deposited data

How the results depend on the processing

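Of 486 values of single members under the other settings, libraries left out not included, 446 kept their direction and their side of the threshold, 20 kept the direction and were now called, 1 lost its call and 19 turned sign. The number of members called was 0 for siIGF2BP1 vs siC and 1 under median-of-ratios scaling, edgeR and DESeq2 (miR-500a-3p each time). For siIGF2BP3 vs siC it was 0, and 1 under upper-quartile scaling (miR-532-5p). For siIGF2BP1 vs siIGF2BP2 it was 0, with 1 under a mean value of at least 10, median-of-ratios scaling, edgeR and DESeq2 (miR-500a-3p), and 3 under upper-quartile scaling. For siIGF2BP1 vs siIGF2BP3 it was 1, with 2 under a pseudocount of 5, a mean value of at least 10, TMM, median-of-ratios or library-total scaling, edgeR and DESeq2 (miR-500a-3p added), and 3 under upper-quartile scaling. With single libraries left out it ranged from 0 to 1 for siIGF2BP3 vs siC, from 0 to 2 for siIGF2BP1 vs siIGF2BP3, and stayed 0 in the other 4 comparisons. The cause was not tested in any of these.

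Whether the replicate numbers pair the knockdown libraries could not be decided. Same-numbered deviations correlated at 0.123 and -0.022 (siIGF2BP1 with siIGF2BP2) and 0.0899 and 0.104 (siIGF2BP1 with siIGF2BP3). For siIGF2BP2 with siIGF2BP3 the correlations were -0.121, -0.157 and -0.0368. Weak correlations cannot exclude pairing, and the deviations of the 2 siIGF2BP1 libraries mirror each other, so their correlations are not separate. With the replicate number as a block, 0 members were called for siIGF2BP1 vs siIGF2BP3, where miR-532-5p gave -0.76 (limma adjusted p = 0.0791); without the block the knockdown libraries alone gave 1. The block also turned miR-501-3p to 0.30 and miR-362-5p to -0.094 for siIGF2BP1 vs siIGF2BP2.

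Upper-quartile scaling shifts all miRNAs: the median of those with a mean value of at least 10 became 0.52 for siIGF2BP2 vs siC and 0.67 for siIGF2BP3 vs siC (0.04 and 0.08 as deposited), and -0.53 and -0.63 for siIGF2BP1 against siIGF2BP2 and siIGF2BP3 (0.16 and 0.15 as deposited). Under TMM that of siIGF2BP1 vs siC became -0.04 (0.16 as deposited). With upper-quartile scaling, log2 fold changes turned to 0.38 (miR-532-5p), 0.29 (miR-532-3p), 0.39 (miR-500a-3p), 0.19 (miR-502-3p) and 0.34 (miR-660-5p) for siIGF2BP2 vs siC, and to 0.57 (miR-500a-3p), 0.29 (miR-660-5p) and 0.27 (miR-362-5p) for siIGF2BP3 vs siC. It also gave -0.51 for miR-501-3p in siIGF2BP1 vs siIGF2BP3, where edgeR gave -0.041 and DESeq2 -0.010. For miR-362-5p in siIGF2BP1 vs siIGF2BP2 the values were -0.57 with upper-quartile scaling, -0.015 with TMM, -0.089 with median-of-ratios scaling, -0.19 with edgeR and -0.17 with DESeq2. A pseudocount of 0.1 gave 0.021 for miR-532-3p in siIGF2BP2 vs siC.

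Leaving out single libraries turned the sign of 13 uncalled log2 fold changes. The ranges were, for siIGF2BP2 vs siC, -0.20 to 0.0057 (miR-532-5p), -0.90 to 0.81 (miR-532-3p) and -0.35 to 0.010 (miR-660-5p), and for siIGF2BP3 vs siC, -1.44 to 0.27 (miR-532-3p), -0.16 to 0.16 (miR-500a-3p) and -0.69 to 0.12 (miR-362-5p). For siIGF2BP1 vs siIGF2BP2 they were -0.38 to 0.19 (miR-501-3p) and -0.24 to 0.43 (miR-362-5p), and for siIGF2BP1 vs siIGF2BP3, -1.49 to 0.28 (miR-532-3p), -0.78 to 0.085 (miR-502-3p) and -0.38 to 0.032 (miR-660-5p). For siIGF2BP2 vs siIGF2BP3 they were -0.24 to 0.075 (miR-500a-3p) and -0.11 to 0.30 (miR-660-5p). For siIGF2BP1 vs siC no member turned sign in any setting or without any single library. Few reads limit miR-532-3p, miR-502-3p and miR-362-5p, which had at most 18 reads in any library.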
